A study of Homo sapiens with 6 samples.

Results

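The genes described here are 10 genes of the insulin-like growth factor (IGF) axis and its keratinocyte relative IGFL1, out of 46287 genes in a table of RNA counts. They were picked by name: IGFL1 and IGFL2 (IGF-like family), IGF1R, IGF2R and INSR (receptors), and IGFBP2, IGFBP3, IGFBP4, IGFBP6 and IGFBP7 (IGF-binding proteins). The difference between the groups was known when they were picked, so their values are given as a description. Their calls are given as a count beside that of all genes, and again where the processing was changed. The libraries came from HaCaT cells, a human skin keratinocyte line that became immortal in culture, in 2 groups of 3. The knockout cells carried a homozygous SDR42E1 knockout made by CRISPR/Cas9, and the controls were wild-type HaCaT cells cultured the same way without further treatment. The replicates are called biological, and whether each was its own culture or edited clone is not stated. The adjusted p-values given for other genes therefore set the group difference against the spread between these libraries, whatever that spread covers.

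IGF1, IGF2 and insulin act through the receptor tyrosine kinases IGF1R and INSR, which signal through IRS adaptors, phosphoinositide 3-kinase and AKT. IGF2R, the cation-independent mannose 6-phosphate receptor, removes IGF2 and carries new enzymes to lysosomes. The binding proteins hold the ligands outside the cell, and proteases such as PAPPA set them free. IGFL1 is a small secreted protein of skin, described in inflamed epidermis, that binds the receptor IGFLR1 and not the IGF receptors.

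Among the 9 tested members IGFL1 differed most between the groups, while IGF1R, the main signalling receptor of the axis, had nearly equal means. The 250 bases before their RefSeq start sites (GRCh38.p14, plus strand) are shown for that contrast. The windows are chr19:46229492-46229741 for IGFL1 and chr15:98648289-98648538 for IGF1R, and capitals mark GGGCGG, the GC box bound by SP1.
IGFL1: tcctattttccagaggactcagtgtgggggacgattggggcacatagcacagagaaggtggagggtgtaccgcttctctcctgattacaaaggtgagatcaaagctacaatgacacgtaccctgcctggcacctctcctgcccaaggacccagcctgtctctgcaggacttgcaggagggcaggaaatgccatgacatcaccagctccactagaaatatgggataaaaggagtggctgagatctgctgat
IGF1R: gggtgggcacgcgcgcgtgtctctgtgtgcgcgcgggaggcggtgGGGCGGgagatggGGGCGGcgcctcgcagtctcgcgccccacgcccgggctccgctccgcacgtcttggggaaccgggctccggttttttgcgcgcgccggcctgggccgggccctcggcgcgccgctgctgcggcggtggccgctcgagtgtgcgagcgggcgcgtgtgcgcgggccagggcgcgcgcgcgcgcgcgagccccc

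The IGFL1 stretch held 3 CpG dinucleotides and 52.8% G or C. The IGF1R stretch held 48 CpG dinucleotides and 81.2% G or C. Medians over 35116 RefSeq promoters were 11 CpG and 58% G or C in the same 250 bases. Windows of 250 bases before to 50 after a start were found for 9 of the 10 members, all but IGFBP7, and were searched on both strands. GGGCGG was present in any window of 7 of those 9 genes, the exceptions being IGFL1 and IGFL2. IGFBP2 had several windows, not all with the motif. Over all promoters 45.0% of windows held it, a share per window and not per gene. The AP-1 motif TGANTCA was in no member's window and in 7.71% of all windows. A pair of common NF-kB motif forms was likewise in no member's window, and 0.997% of all windows held either. These searches cover only the letters given and these short windows.

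Library totals ran from 11504473 to 16928201 counts. SDR42E1 RNA was present in every library, at 268, 265 and 237 counts in knockout cells and 650, 822 and 601 counts in control cells (log2 fold change -1.16, SE 0.08, edgeR adjusted p = 2.69e-14). The median log2 fold change of its 20 nearest tested genes, counting only those with a mean log2 CPM of 2 or more, was -0.57, and all 20 were below 0. The nearest on each side were PLCG2 (-1.23) and MPHOSPH6 (-0.95). The same minimum level was set for the neighbours of every gene given here. Each of the 10 keratinocyte markers was detected, with a summed level of 10298 to 10701 CPM in knockout and 8800 to 9427 CPM in control libraries. The sum hides opposite changes: 6 rose, 1 fell and 3 did not pass an adjusted p of 0.05. KRT5 fell (log2 fold change -0.66, edgeR adjusted p = 8.98e-15), KRT14 did not pass (-0.07, edgeR adjusted p = 0.214) and KRT6A rose (1.26, edgeR adjusted p = 4.89e-23). Melanocyte markers summed to 19.5 to 23.5 CPM in knockout and 24.1 to 24.9 CPM in control libraries, with TYR at 0 counts. Most of that sum was MITF, at 17.1, 18.4 and 22.1 CPM in knockout and 20.9, 21.4 and 21.7 CPM in control libraries. PMEL had 2.08, 2.35 and 1.31 CPM in knockout and 2.95, 2.31 and 2.76 CPM in control libraries. Immune markers summed to 0.262 to 1.73 CPM in knockout and 0.812 to 1.45 CPM in control libraries, with CD3E at 0 counts. Here CPM is a gene's count scaled to a common library size, with TMM factors that align library composition. Of all 12293 genes tested, 50.4% passed an adjusted p of 0.05, 24.6% higher and 25.8% lower in the knockout, and the groups did not overlap in 56.5%.

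IGFL1 was low in control cells and higher in every knockout library. It had 9.34, 7.14 and 13.1 CPM in knockout libraries (108, 94 and 150 counts) against 0.432, 0.347 and 0.568 CPM in control libraries (6, 6 and 7 counts). The lowest knockout library lay above the highest control library by a wide margin, and the spread among knockout libraries was large for this gene. The means were 9.87 ± 3.02 CPM in knockout cells and 0.449 ± 0.112 CPM in control cells (SD, n = 3 each), a log2 fold change of 4.46 (SE 0.30). From summed counts the ratio was 22.3, with a 95% exact counting interval of 14.1 to 37.5 that covers counting error only. By fold change it was the rank 3 rise among 12293 genes tested. IGFL1 entered the test through its counts in the knockout group.

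Per kilobase of annotated exon, IGFL1 was the third of the 10 genes in knockout cells and the seventh in control cells. Its level was 12.8 ± 3.93 CPM per kilobase in knockout cells and 0.584 ± 0.145 in control cells (SD, n = 3 each). In knockout cells IGFL1 overlapped with IGF2R, whose libraries held 9.12, 10.6 and 10.5 CPM per kilobase beside 12.1, 9.28 and 17.1 for IGFL1. So those neighbours in the order do not differ beyond the spread.

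IGFL1 lies at 46229752 to 46231243 on the plus strand of chromosome 19 (GRCh38, GENCODE release 29), in a cluster with the other IGFL genes. IGFL2, a relative of IGFL1 whose function is less studied, starts at 46143106 and was near 0 in both groups, with 0, 2 and 1 counts in knockout libraries and 0, 3 and 1 counts in control libraries. These counts are too few to show a difference, and IGFL2 was not tested. IGFL3 had 0 counts in the knockout libraries and 1 count over the control libraries. IGFL4 had 3, 3 and 8 counts in knockout libraries and 19, 11 and 15 counts in control libraries, or 0.259, 0.228 and 0.700 CPM against 1.37, 0.636 and 1.22 CPM. Its groups overlapped in CPM, since knockout replicate 3 exceeded control replicate 2, and it was too low to be tested. The 20 tested genes nearest IGFL1 with a mean log2 CPM of 2 or more had a median log2 fold change of 0.03. Of these, 9 were below 0, and the highest stood at 0.36. IGFL1 stood 4.43 above the median of its surroundings.

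Reads of the IGFL genes could be told apart by sequence: of the 720 different stretches of 50 bases in IGFL1 transcripts, 48 (6.67%) occurred in another gene. All of them were in AC006262.3, an antisense gene that overlaps IGFL1 and has no row of that name in the count table. How the counting treated strand is not stated, so antisense reads cannot be told apart from IGFL1 reads over that overlap.

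IGFLR1, a receptor of TNF receptor type that binds IGFL1, fell. It had 1.12, 1.37 and 0.350 CPM in knockout libraries (13, 18 and 4 counts) against 1.73, 2.55 and 2.76 CPM in control libraries (24, 44 and 34 counts). The groups did not overlap, and knockout replicate 3 was the lowest. The log2 fold change was -1.28 (SE 0.38, edgeR adjusted p = 0.00503). Without knockout replicate 3 it was -0.90 and no longer passed (edgeR adjusted p = 0.0545). IGFLR1 overlaps KMT2B on the opposite strand, and KMT2B, with 122, 135 and 176 counts in knockout and 99, 173 and 121 in control libraries, had a log2 fold change of 0.42.

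The genes most like IGFL1 in profile were taken by Euclidean distance between log2 CPM values over the 6 libraries, each centred on its own mean. Candidates were 10524 tested genes with a symbol and a mean log2 CPM of 2 or more. A small count was added before the log, which makes the differences of low genes such as IGFL1 smaller than their fold changes given here. The nearest was the cytokine gene IL1A (distance 1.11), then the protease inhibitor gene TFPI2 (1.29), the serpin gene SERPINB2 (1.31), ANTXR2 (1.59), an anthrax toxin receptor, and the EGF receptor ligand gene AREG (1.65). IL1A had 33.3 ± 1.93 CPM in knockout cells and 3.32 ± 0.698 CPM in control cells (SD, n = 3 each). With 2 groups this likeness reflects mainly the size of the difference between them.

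**Figure D1:**
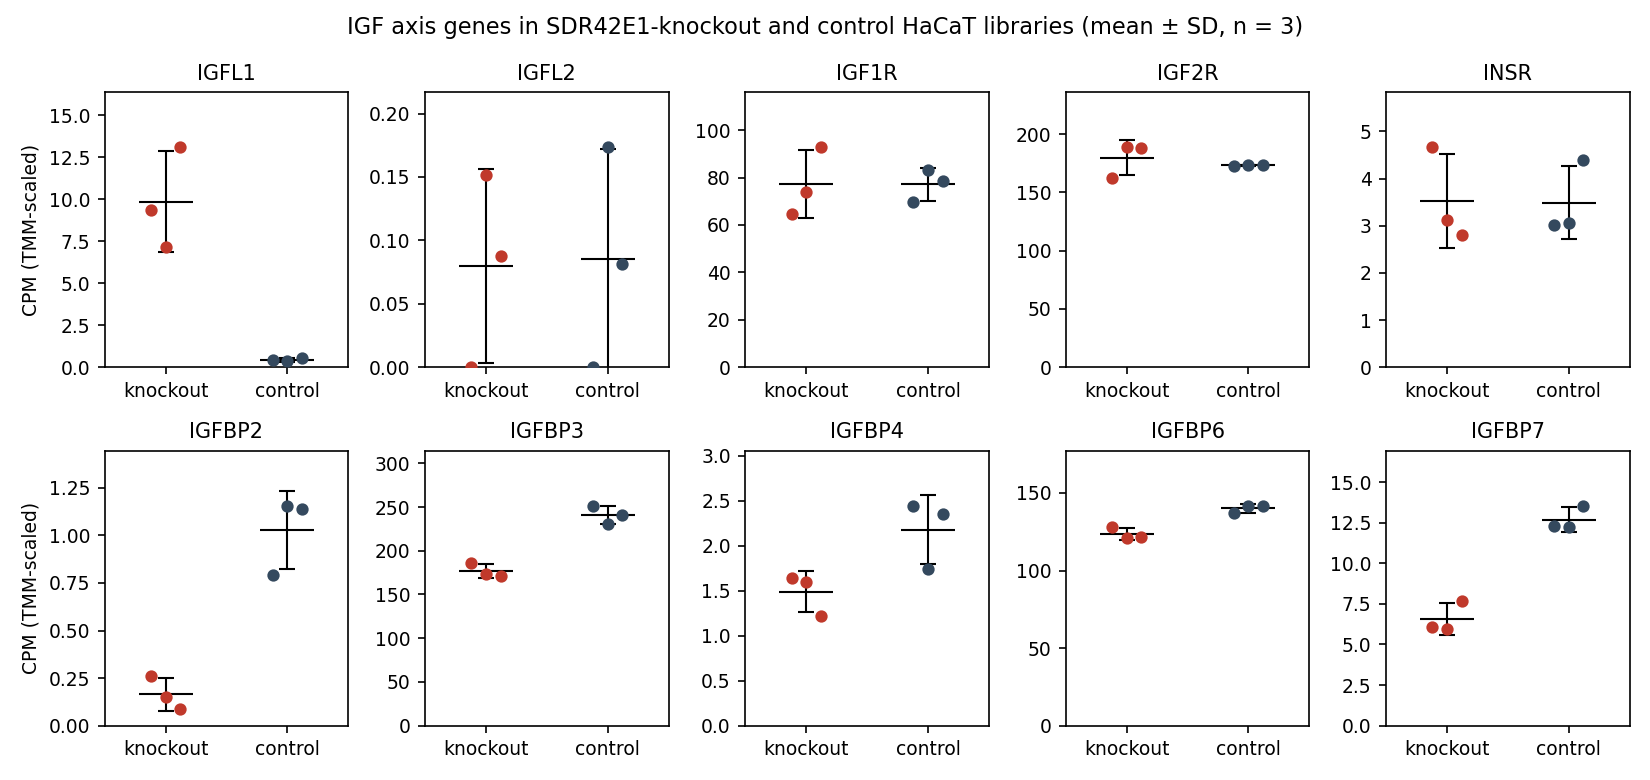
CPM of each of the 10 genes in the 3 knockout libraries (red, left) and the 3 control libraries (dark, right), each panel with its own linear axis from 0; points are libraries, bars the mean ± SD. IGFL1 sits at 7.14 to 13.1 CPM in knockout and 0.347 to 0.568 CPM in control libraries, and the 3 receptors overlap between groups. All 5 binding proteins are lower in knockout libraries without overlap, and the groups did not overlap in 56.5% of all genes tested. IGFBP4 did not pass an adjusted p of 0.05, and IGFBP2 rests on few reads in knockout libraries.

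The 3 receptor genes overlapped between the groups. IGF1R, the receptor of IGF1 and IGF2, had 64.7, 74.0 and 92.9 CPM in knockout libraries and 69.7, 83.4 and 78.4 CPM in control libraries. The knockout libraries spanned the whole control range, with replicate 1 below and replicate 3 above it. The means were 77.2 ± 14.4 CPM in knockout cells and 77.2 ± 6.91 CPM in control cells (SD, n = 3 each), with a log2 fold change of 0.00 (SE 0.15).

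IGF2R had 163, 189 and 188 CPM in knockout libraries and 173, 174 and 173 CPM in control libraries. The control libraries were nearly equal, and the knockout libraries lay on both sides of them. The log2 fold change was 0.05 (SE 0.05). Without knockout replicate 1, the lowest of its group, it was 0.12.

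INSR, the insulin receptor, was much the lowest of the receptors, with 4.67, 3.11 and 2.80 CPM in knockout libraries and 3.02, 3.07 and 4.38 CPM in control libraries. Its groups overlapped, with 1 high library in each (log2 fold change 0.02, SE 0.26). With such an SE a difference of moderate size could not be seen for INSR. Per kilobase, IGF2R made up 63.3 ± 2.66% of the receptor RNA in knockout cells and 62.4 ± 2.03% in control cells (SD, n = 3 each). IGF1R made up 34.5 ± 3.15% in knockout cells and 35.5 ± 1.99% in control cells, and INSR 2.17 ± 0.856% in knockout cells and 2.14 ± 0.452% in control cells. The summed receptor level was 16.0 ± 1.64 CPM per kilobase in knockout cells and 15.6 ± 0.539 in control cells.

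The 5 binding protein genes had lower values in each knockout library than in any control library. Among all 9 tested members 1 was higher and 4 were lower past the threshold, and 6 did not overlap between groups, beside 24.6%, 25.8% and 56.5% over all genes. The median log2 fold change of the 9 was -0.18, and that of all genes tested was 0.00. Because the members were picked with this difference known, and IGFL1 and IGFBP2 entered the test through the group where they are high, nothing is read from these counts. In bulk RNA, fewer cells that express a gene and less RNA per cell cannot be told apart.

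IGFBP3, the main carrier of IGFs in blood, had 186, 173 and 171 CPM in knockout libraries and 252, 231 and 241 CPM in control libraries. Each knockout library was below each control library. The means were 177 ± 8.24 CPM in knockout cells and 241 ± 10.5 CPM in control cells (SD, n = 3 each), a log2 fold change of -0.45 (SE 0.05). The 20 tested genes around it on chromosome 7 leaned the other way, with a median of 0.34 and 3 below 0. Its neighbour IGFBP1, which starts at 45888357 on chromosome 7 beside IGFBP3 at 45912245, had 0 counts in all 6 libraries.

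IGFBP6, which prefers IGF2 over IGF1, had 128, 121 and 122 CPM in knockout libraries and 137, 141 and 142 CPM in control libraries. The groups were close but did not overlap, and their spreads were small. The log2 fold change was -0.18 (SE 0.05), the smallest among the binding proteins. Per kilobase IGFBP6 was the first and IGFBP3 the second of the 10 genes in both groups, at 91.9 ± 2.89 and 38.7 ± 1.80 CPM per kilobase in knockout cells and 104 ± 1.98 and 52.7 ± 2.29 in control cells (SD, n = 3 each).

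IGFBP7, a secreted protein of low IGF affinity also known from vessels and stroma, had 6.05, 5.92 and 7.70 CPM in knockout libraries and 12.3, 12.2 and 13.6 CPM in control libraries. All knockout libraries lay well below the controls. The means were 6.56 ± 0.988 CPM in knockout cells and 12.7 ± 0.752 CPM in control cells (SD, n = 3 each), with a log2 fold change of -0.95 (SE 0.15). Its annotated exons share 14.5% of their 50-base stretches with other genes, POLR2B on the opposite strand first among them. POLR2B had 1707, 2175 and 1767 counts in knockout and 2688, 3175 and 2307 counts in control libraries (log2 fold change -0.27), so part of the IGFBP7 count is uncertain without the strand setting. The summed levels of fibroblast and endothelial markers were lower in the knockout as well. The 7 fibroblast markers summed to 1.12 to 2.13 CPM in knockout and 4.30 to 6.19 CPM in control libraries, 2 of 7 were tested and 1 fell (COL3A1, log2 -4.33, edgeR adjusted p = 1.01e-06), COL1A1 did not pass (-0.59, edgeR adjusted p = 0.133), and DCN and PDGFRA had 0 counts throughout. The 5 endothelial markers summed to 1.92 to 2.66 CPM in knockout and 3.65 to 4.28 CPM in control libraries, with 0 counts for TIE1 and 1 count per group for PECAM1. Of these 5, 2 were tested and 1 fell (VWF, log2 -0.98, edgeR adjusted p = 0.0315), CDH5 did not pass (-0.48, edgeR adjusted p = 0.231), and KDR had 0 counts in the knockout and 10 in the control libraries. Their part in the IGFBP7 difference was not tested.

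IGFBP2 was close to the limit of detection in knockout cells, at 3, 2 and 1 counts against 11, 20 and 14 counts in control libraries. In CPM these were 0.259, 0.152 and 0.0875 in knockout and 0.792, 1.16 and 1.14 in control libraries. The groups did not overlap, though each knockout value rests on a few reads. The log2 fold change was -2.57 (SE 0.61), and summed counts gave a 6.24-fold lower level in the knockout with a 95% exact counting interval of 2.65 to 17.9. IGFBP2 passed the filter on low counts through its control libraries. IGFBP5, its neighbour on chromosome 2, had 0 counts in the knockout and 1 count in the control libraries.

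IGFBP4, the binding protein that PAPPA cuts, had 1.64, 1.59 and 1.22 CPM in knockout libraries and 2.45, 1.74 and 2.35 CPM in control libraries. The groups did not overlap, but the nearest libraries differed by little, and the SE was large beside the difference (log2 fold change -0.53, SE 0.33). IGFBP4 lies on chromosome 17 among genes that were mostly lower. The 20 nearest tested genes, from 40.1 to 41.7 Mb, lay mostly under 0 (median log2 fold change -1.06), with 16 below 0. TOP2A on one side stood at -1.30 and TNS4 on the other at 0.17. IGFBP4 differed from that median by 0.53, and the SD among those neighbours was 0.98. The other 8 tested members had a neighbour median between -0.10 (IGF1R) and 0.34 (IGFBP3).

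Summed per kilobase, the 5 binding protein genes gave 135 ± 4.52 CPM per kilobase in knockout cells and 165 ± 1.82 in control cells (SD, n = 3 each). IGFBP6 made up 68.3 ± 0.144% of that sum in knockout cells and 63.2 ± 1.30% in control cells. IGFBP3 made up 28.7 ± 0.449% in knockout cells and 32.0 ± 1.28% in control cells. IGFBP7 made up 2.53 ± 0.423% in knockout cells and 3.99 ± 0.196% in control cells. IGFBP4 and IGFBP2 together held the small remainder. So IGFBP6 held a larger share, and IGFBP3 and IGFBP7 smaller shares, in each knockout library than in each control library.

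**Figure D2:**
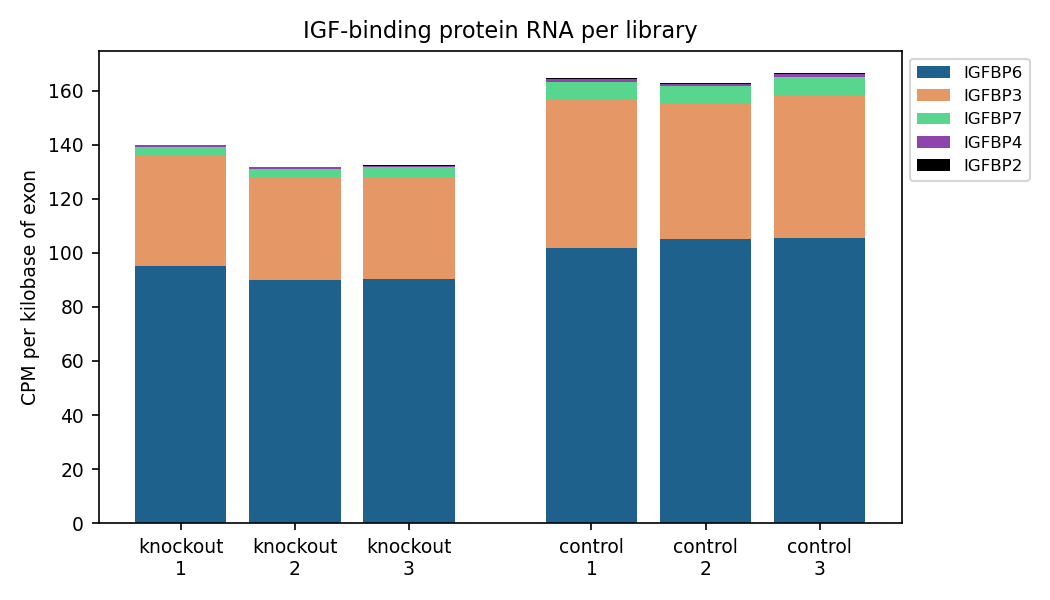
Stacked bars give the RNA of the 5 IGF-binding protein genes in each library, in CPM per kilobase of annotated exon, knockout libraries on the left. The knockout sums are 132 to 140 and the control sums 163 to 166, and IGFBP6 and IGFBP3 make up nearly the whole of each bar.

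**Figure D3:**
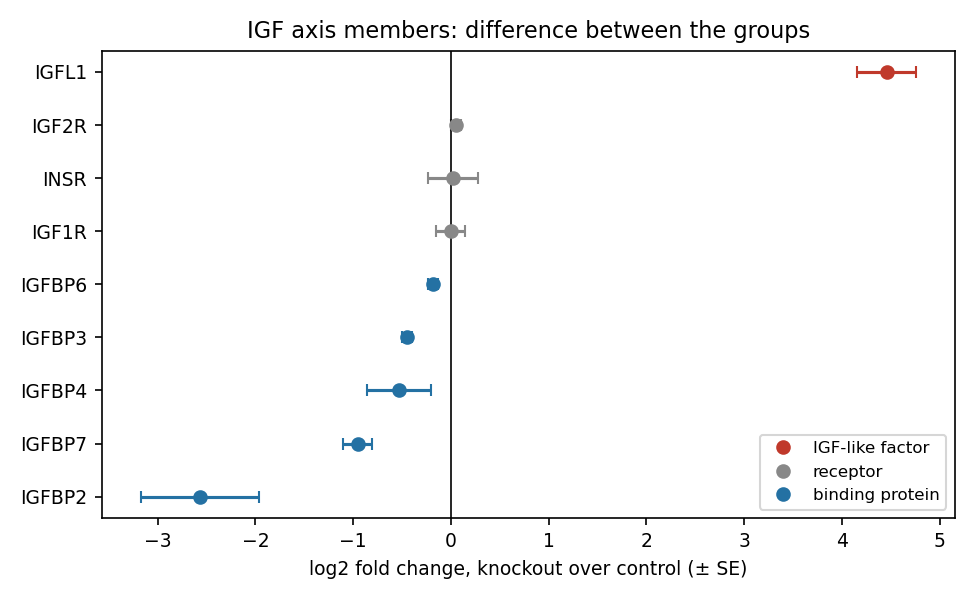
Log2 fold change of knockout over control for the 9 tested members, with bars of 1 SE; colours give the role, IGF-like factor, receptor or binding protein. IGFL1 stands at 4.46, the receptors near 0, and the binding proteins between -2.57 (IGFBP2) and -0.18 (IGFBP6).

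The ligand genes were at or near 0. IGF1 had 3, 0 and 0 counts in knockout libraries and 0, 1 and 0 counts in control libraries, and IGF2 had 0, 3 and 2 counts in knockout libraries and 0 counts in control libraries. INS had 0 counts in all 6 libraries, as had IGFBP1 and IGFBPL1. A count of 0 allows up to 3 counts, which is 0.228 to 0.262 CPM in the knockout libraries and 0.174 to 0.244 CPM in the control libraries. INSRR, an insulin receptor relative, had 0 counts in the knockout libraries and 1 count in the control libraries. IGFALS, which holds IGFBP3 in the serum complex, had 1, 0 and 0 counts in knockout libraries and 3, 5 and 2 counts in control libraries. Of these 11 further genes of the axis, IGFLR1 alone had enough counts to be tested.

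Genes around the axis were taken from lists made from general knowledge. Of 8 genes for proteases of IGF-binding proteins and their inhibitors, 4 were tested, 3 of them rose, 0 fell and 1 did not pass, with a median log2 fold change of 0.35. PAPPA, the metalloprotease that cuts IGFBP4, had 28.3, 31.4 and 32.1 CPM in knockout libraries and 11.1, 9.08 and 7.96 CPM in control libraries. The groups were far apart, at 30.6 ± 2.03 CPM in knockout cells and 9.37 ± 1.58 CPM in control cells (SD, n = 3 each). PAPPA rose 3.25-fold (log2 1.70, SE 0.11, edgeR adjusted p = 2.41e-15). STC2, a secreted inhibitor of PAPPA, rose by 0.38 (SE 0.12, edgeR adjusted p = 0.00868), and without control replicate 2 it no longer passed (0.32, edgeR adjusted p = 0.0551). ADAM9, a membrane protease, rose by 0.26 (SE 0.05, edgeR adjusted p = 2.00e-05). The related inhibitor STC1 stood at 0.32 and did not pass (SE 0.47, edgeR adjusted p = 0.601). The 4 other genes had too few counts to be tested. HTRA1 had 3, 7 and 8 counts in knockout and 13, 13 and 14 in control libraries, and ADAM12 7, 4 and 1 against 5, 17 and 11. PAPPA2 had 2, 4 and 2 counts in knockout and 1, 2 and 1 in control libraries, and ADAM28 0, 2 and 1 against 1, 3 and 0.

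IGF1R and INSR are made as precursors that furin-type convertases cut. Of the 4 convertase genes 2 rose, 1 fell and 1 did not pass (median log2 fold change 0.26). PCSK5 fell, with 42.8, 38.7 and 42.0 CPM in knockout libraries and 96.7, 97.8 and 104 CPM in control libraries. Its groups did not come near each other (log2 fold change -1.28, SE 0.07, edgeR adjusted p = 1.17e-18). FURIN rose by 0.22 (SE 0.06, edgeR adjusted p = 0.00293) and PCSK7 by 0.31 (SE 0.08, edgeR adjusted p = 0.00100). PCSK6 stood at 0.30 and did not pass (edgeR adjusted p = 0.0532) and passed under 4 of 13 other settings.

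Among 30 genes of signal transduction below the receptors, 10 rose, 8 fell and 12 did not pass, with a median log2 fold change of 0.06. IRS2, an adaptor of both receptors, had 9.51, 10.1 and 11.6 CPM in knockout libraries and 4.32, 3.82 and 4.22 CPM in control libraries. All knockout values were above all control values (log2 fold change 1.34, SE 0.17, edgeR adjusted p = 3.80e-08). GRB10, an adaptor that restrains both receptors, fell, with 3.98, 3.11 and 2.10 CPM in knockout libraries and 9.79, 8.22 and 8.04 CPM in control libraries. Again the groups were apart (log2 fold change -1.50, SE 0.20, edgeR adjusted p = 1.15e-07). PIK3R3, a regulatory subunit of phosphoinositide 3-kinase, fell by 0.81 (SE 0.10, edgeR adjusted p = 1.23e-08), and GSK3B, a kinase that AKT inhibits, rose by 0.32 (SE 0.05, edgeR adjusted p = 4.01e-06).

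Among 16 FOXO factors and targets, genes that are raised when insulin and IGF signals are low, 3 rose, 9 fell and 4 did not pass (median log2 fold change -0.34). The rises were FOXO3 itself, by 0.43 (SE 0.06, edgeR adjusted p = 4.08e-08), and 2 stress-responsive genes. TXNIP, a thioredoxin-binding protein that limits glucose uptake, had 213, 190 and 180 CPM in knockout libraries and 69.8, 75.7 and 77.4 CPM in control libraries. The groups were far apart (log2 fold change 1.39, SE 0.06, edgeR adjusted p = 4.00e-19), and the 20 tested genes around TXNIP on chromosome 1 had a median of -0.39 with 19 below 0. GADD45A, a growth arrest gene, rose by 1.62 (SE 0.10, edgeR adjusted p = 1.39e-13). BCL6, a transcriptional repressor, had the smallest adjusted p among the falls (log2 fold change -1.49, SE 0.22, edgeR adjusted p = 5.46e-07). PDK4 had the largest fall (log2 fold change -1.97, SE 0.49, edgeR adjusted p = 0.00106). It rests on few counts, 2, 3 and 9 in knockout and 14, 32 and 22 in control libraries. SESN3 stood at -1.33 (SE 0.16, edgeR adjusted p = 0.000322). The list thus moved in both directions. Of all genes tested, 24.6% were higher and 25.8% lower. The falls in the list numbered 7 to 9 under the other settings, and nothing is read from these counts.

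IGF2R shares its sorting route with 14 listed genes of mannose 6-phosphate sorting and its lysosomal cargo, of which 5 rose, 4 fell and 5 did not pass (median log2 fold change 0.02). Of the 3 lysosomal proteases in the list 2 fell and 1 rose: CTSB fell by 0.89 (SE 0.05, edgeR adjusted p = 5.16e-18), CTSD by 0.21 (SE 0.05, edgeR adjusted p = 0.000282), and CTSL rose by 0.72 (SE 0.08, edgeR adjusted p = 8.87e-10). M6PR, the other mannose 6-phosphate receptor, rose by 0.23 (SE 0.05, edgeR adjusted p = 0.000111). VPS35, a subunit of the retromer that returns IGF2R from endosomes, fell by 0.48 (SE 0.05, edgeR adjusted p = 9.31e-11). VPS35 lies on chromosome 16, as SDR42E1 does, and its 20 nearest tested genes had a median of -0.12.

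Of the 3 genes for proteins that bind IGF2 mRNA, 2 rose. IGF2BP2 had 89.2 ± 4.08 CPM in knockout cells and 71.0 ± 4.13 CPM in control cells, and IGF2BP3 had 94.5 ± 2.44 CPM in knockout cells and 73.2 ± 6.88 CPM in control cells (SD, n = 3 each). The log2 fold changes were 0.33 (SE 0.06, edgeR adjusted p = 2.54e-05) and 0.36 (SE 0.06, edgeR adjusted p = 9.35e-06). IGF2BP1 had 0 counts in the knockout and 1 count in the control libraries. With 50.4% of all tested genes past the threshold, counts of calls in these 6 lists are not read as particular to them.

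**Figure D4:**
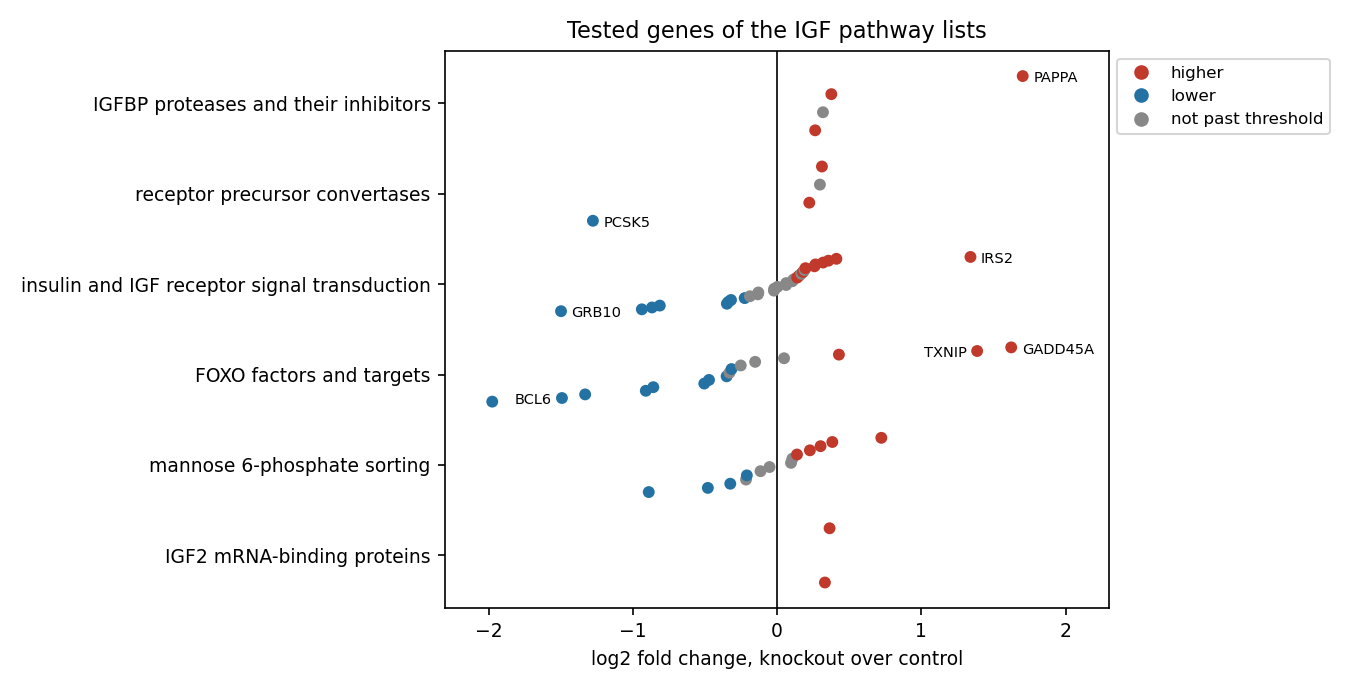
Each point is a tested gene of 1 of the 6 pathway lists, placed by its log2 fold change of knockout over control; red rose, blue fell and grey did not pass an adjusted p of 0.05 in edgeR's test over all genes. PAPPA (1.70), GADD45A (1.62), TXNIP (1.39) and IRS2 (1.34) lie farthest right. PDK4 (-1.97, without a label) lies farthest left, followed by GRB10 (-1.50), BCL6 (-1.49), SESN3 (-1.33, without a label) and PCSK5 (-1.28).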

How the data were processed

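Total RNA of 6 HaCaT libraries was sequenced after stranded library preparation, per the labels' protocols. The authors deposited raw counts per gene, 1 column per library, with GRCh38 named as build in the submitters' processing notes. No label or header names an aligner, a counter or how strand was treated. Column names gave the sample of each library, and 0 rows had no gene name.

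The test was run in edgeR 4.0.16 (R 4.3.3): filterByExpr (minimum count 10, minimum total 15), TMM scaling, and the robust quasi-likelihood F test, two-sided, over 6 libraries, with Benjamini-Hochberg adjustment over 12293 genes at 0.05. Positive log2 fold changes mean higher in knockout (prior count 0.125), and each SE was derived from the fold change and its F statistic. The procedure was also run on simulated counts that gave all genes the same dispersion and changed few of them, unlike these data. No result is read from that run. The common biological coefficient of variation was 0.0539. Pairs of libraries within a group were more different than sampling alone gives (chi-square 2.65 to 4.49 per degree of freedom, over genes with 20 or more counts in the pair), so none was taken as a repeat of another; this does not show that they came from separate cultures, and the labels alone make them replicates. Positions and exon lengths (union of exons) came from GENCODE 29 on GRCh38, and promoters from RefSeq; no protein sequences were used. Intervals are exact binomial (Clopper-Pearson) and cover counting error only.

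The members and lists were chosen with earlier results of these data known. Named were the 10 members, SDR42E1, the other IGF axis genes, up to 4 genes of smallest adjusted p per list (all in lists of 4 or fewer), the 5 nearest IGFL1 in profile, and the nearest neighbours where the neighbours' median exceeded 0.5 in size. POLR2B, KMT2B, CTSD, PDK4, SESN3 and single markers were named after their values were seen. Alternatives were DESeq2 1.42.0, limma-voom (limma 3.58.1), RLE and upper-quartile scaling, no filter, a minimum of 1 CPM in 3 libraries, a block for replicate number, each library left out, and longest coding transcripts as lengths.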

Additional observations from a re-analysis of the deposited data

How the results depend on the processing

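Of 38 named genes, 34 had the same call under each of the 13 alternatives that gave them a value, and 0 called values changed sign. The values of IGF1R (-0.15 to 0.11), INSR (-0.22 to 0.21) and STC1 (-0.05 to 0.69), not past the threshold, lay on both sides of 0. IGF2R, IGFLR1, STC2 and PCSK6 crossed the threshold under at least 1. IGFL1 ranged from 4.20 to 4.65 (log2), IGFBP3 from -0.48 to -0.42, IGFBP6 from -0.21 to -0.16, IGFBP7 from -1.08 to -0.88, and IGFBP2 from -2.99 to -2.29 where it was tested. IGFBP2 was too low to be tested with at least 1 CPM in 3 libraries or without control replicate 2. All genes changed numbered 6197, against 5315 with DESeq2, 6425 with the replicate block and 5338 to 6074 with 1 library left out. Libraries with the same number showed no shared deviation (correlations 0.05, -0.04 and 0.06), so numbers were not taken as pairs; the block brought PCSK6 past the threshold (log2 0.30, edgeR adjusted p = 0.0304) and changed no other call of a named gene.

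With 1 library left out, the members counted as higher were 1 to 2 and as lower 3 to 4. Over all genes these counts were 2604 to 2964 higher and 2734 to 3110 lower. The further IGF axis genes counted as lower were 1 to 2, with 2 only without control replicate 2. The mannose 6-phosphate sorting genes counted as higher were 3 to 5. With longest coding transcripts as lengths, IGFBP3 held 39.9% of the IGFBP sum in knockout and 43.5% in control cells and IGFBP6 57.2% in knockout and 51.8% in control cells; the length alone was changed. Depth limits IGFBP2, IGFBP4, INSR, IGFL2 and IGFLR1, which had few counts per library.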
